A study of Mus musculus with 16 samples.

Results

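The genes described here are 10 transcripts used as marks of reactive astrocytes, the state that astrocytes enter in injured or diseased brain: Gfap, Vim, Osmr, Stat3, Cd44, Emp1, Ggta1, Serpina3n, Timp1 and Lcn2. They were taken by name from a fixed set of symbols, with no cut on a measured value, and all 10 were found among the 55385 genes of the deposited count table. The set was chosen with earlier results of these data known. Reactive astrocytes enlarge their intermediate filaments, made of GFAP and vimentin, and secrete protease inhibitors and other proteins. Cytokines of the interleukin-6 family, among them oncostatin M, act on astrocytes through receptors that pair with gp130 and activate the transcription factor STAT3. In cortex with amyloid plaques, astrocytes with high GFAP gather around the plaques together with microglia.

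Polyadenylated RNA was sequenced from cerebral cortex of 16 mice, each 5 months old, with 4 in each of 4 genotypes. The wild-type mice were C57BL/6J, with 2 males and 2 females. Dp16 mice, also 2 males and 2 females, carry a duplication of a segment of mouse chromosome 16 related to human chromosome 21 and serve as a model of Down syndrome. 5xFAD mice, again 2 males and 2 females, carry human transgenes bearing mutations of familial Alzheimer's disease under the neuronal Thy1 promoter, and the 4 animals with both alleles (5xFAD-Dp16) were males. The labels give the strain background for the wild-type mice alone. The p-values below measure the spread between these libraries, and none of the 10 genes lies on chromosome 16.

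The libraries held 12483286 to 20385010 counted reads, of which 7.71 to 10.99% were mitochondrial. The tissue had the transcripts of cortex astrocytes: 15 of 15 astrocyte markers, such as Aqp4, Aldh1l1 and Slc1a2, were detected, and their summed level ran from 7368 to 11076 counts per 1000000 reads (CPM) over the 16 libraries. A pair of libraries stood apart from the rest. The median correlation of log2 CPM with the other libraries was 0.939 for wild-type replicate 2 and 0.938 for 5xFAD replicate 3, against 0.953 to 0.972 for the others. A further pair carried choroid plexus and ependyma transcripts: the 8 markers summed to 734 CPM in 5xFAD-Dp16 replicate 2 and 128 CPM in Dp16 replicate 3, against 27.2 to 50 CPM elsewhere. In cortex homogenate, more cells of a type and more RNA per cell cannot be told apart.

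STAT proteins bind palindromes with a 3-base spacer, and STAT3 acts on the Gfap promoter in astrocytes. The stretches around the transcription starts are shown for the members that held such a palindrome there. RefSeq start windows of 300 bases, from 250 before the start to 50 after it, were found for 10 of 10 genes (11 windows). They were searched for TTCNNNGAA, which reads the same on both strands, and for TGANTCA, the AP-1 type palindrome, which does so too. TTCNNNGAA was present in the windows of 2 members, Gfap and Emp1, and in 8.298% of all 32851 windows. TGANTCA was present in those of Emp1 and Osmr, and in 7.808% of all windows. Capitals mark the matches, and in Emp1 the last capital run holds a TGANTCA and a TTCNNNGAA that overlap.
Gfap, chr11:102897181-102897300, minus strand, GRCm38.p6: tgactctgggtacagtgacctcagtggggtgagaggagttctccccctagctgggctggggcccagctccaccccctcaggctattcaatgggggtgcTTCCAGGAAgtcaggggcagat
Emp1, chr6:135362771-135362930, plus strand, GRCm38.p6: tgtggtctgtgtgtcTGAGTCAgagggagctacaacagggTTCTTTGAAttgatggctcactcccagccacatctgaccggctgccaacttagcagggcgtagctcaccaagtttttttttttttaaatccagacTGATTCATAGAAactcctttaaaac
The Gfap match runs from base -2 to base 7 around the RefSeq start, and the Emp1 matches lie at -120 to -112 and at -22 to -14 for TTCNNNGAA and at -145 to -139 and -25 to -19 for TGANTCA. The Osmr match lies at 4 to 10. A match describes the letters of the window and no binding was measured. Sequence outside the windows was not searched, and whether STAT3 acts through the Gfap match was not tested.

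Per unit of gene length, Gfap stood far above the other members in the wild-type cortex. Its mean level was 39.7 RPKM ± 2.76 (reads scaled by exon length and by the library total, SD, n = 4), followed by Vim at 9.49 ± 2.38, Serpina3n at 3.27 ± 1.11 and Stat3 at 2.33 ± 0.992. The remaining 6 members were below 1 RPKM in wild-type, from Ggta1 at 0.944 ± 0.310 down to Lcn2 at 0.103 ± 0.206. Serpina3n and Stat3, neighbours in this order, were within their spread of each other. In each of the 4 genotypes the order began with Gfap, Vim, Serpina3n, Stat3 and Ggta1. The ratio of Gfap to Vim, both filament proteins, was 4.18 in wild-type, 5.52 in Dp16, 19.6 in 5xFAD and 9.78 in 5xFAD-Dp16 from the mean RPKM values.

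**Figure D1:**
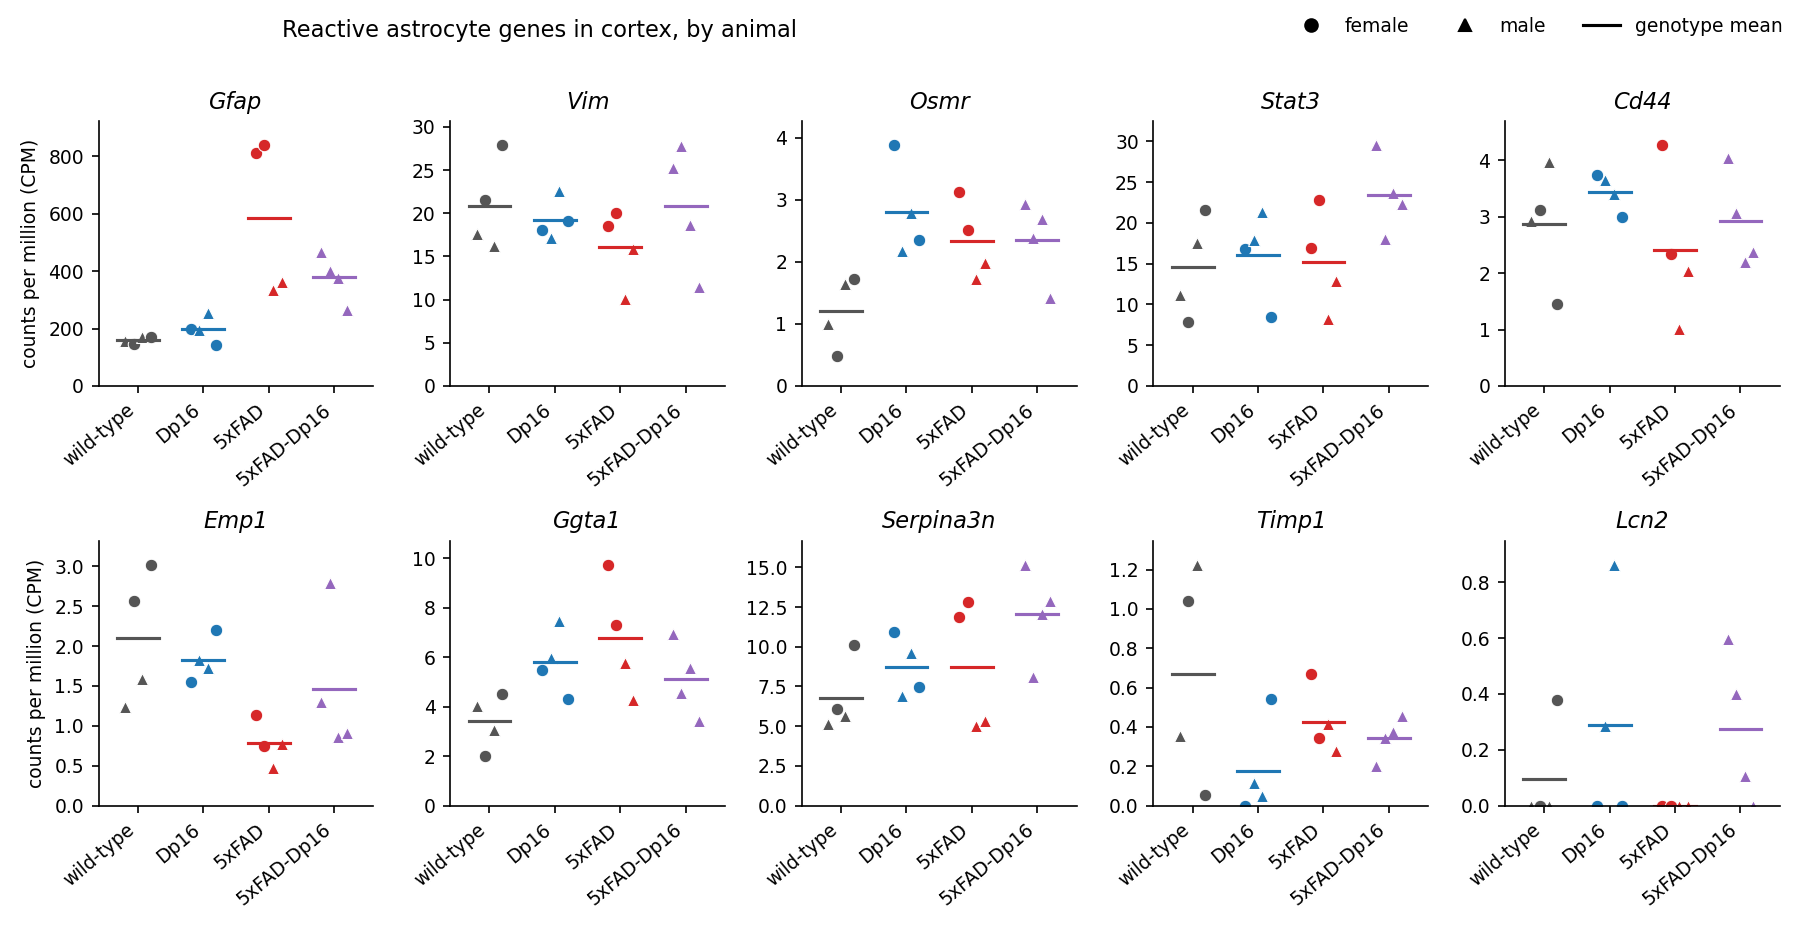
CPM (linear axes from 0) of the 10 genes in each animal, by genotype; circles are females, triangles males and horizontal lines genotype means (n = 4). Gfap separates the 5xFAD carriers from the other animals, with the 2 5xFAD females highest at 811 and 838 CPM, while most other members overlap between genotypes.

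Gfap, on the minus strand of chromosome 11 (102887336 to 102900912, GRCm38), encodes the intermediate filament protein of astrocytes. In wild-type mice it was at 158, 147, 172 and 169 CPM in replicates 1 to 4, and in Dp16 mice at 198, 195, 254 and 142 CPM. In 5xFAD mice the values were 811 and 838 CPM in the 2 females and 335 and 361 CPM in the 2 males. The 5xFAD-Dp16 males had 468, 402, 377 and 264 CPM. Each of the 8 animals with the transgenes was thus above each of the 8 without them, and the lowest carrier (264 CPM) was close to the highest Dp16 animal (254 CPM).

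The comparison of 5xFAD with wild-type asks how the members differ with the amyloid transgenes on a normal chromosome complement. Gfap was 3.57-fold higher, a log2 fold change of 1.84 (SE 0.259, adjusted p = 0.00283, edgeR quasi-likelihood test, Benjamini-Hochberg adjusted across the 17019 genes tested). It was the one member past the threshold of 0.05 among the 8 that could be tested, where 0.176% of all tested genes passed. Timp1 and Lcn2 were too low for the filter on counts. Gfap remained past the threshold when any of the 16 libraries was left out, with log2 fold changes from 1.66 to 2.03. Among males the log2 fold change was 1.14 (SE 0.215) and did not pass (adjusted p = 0.0952, 2 against 2).

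The same transgenes on the duplicated background were compared in 5xFAD-Dp16 against Dp16. This set 4 males against 2 males and 2 females, with an additive sex term in the model. Gfap was 1.98-fold higher (log2 0.98, SE 0.265, unadjusted p = 0.00176, adjusted p = 0.758, edgeR). The ranges of the groups did not overlap. Here 0 of 8 members passed, and 0.0176% of all genes did. DESeq2 also called 0 members, and 2 members, Gfap and Serpina3n, had an unadjusted edgeR p under 0.05, beside 5.29% of all genes. Without a filter on low counts, edgeR gave Gfap an adjusted p of 4.23e-07 in this comparison, where 0.154% of all genes passed. Among males, with the filter, 0 members passed and 0.0171% of all genes did. The Gfap means of the males were 378 CPM in 5xFAD-Dp16 (n = 4) and 224 CPM in Dp16 (n = 2).

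Over all 8 carriers against all 8 non-carriers, a contrast that uses the animals of both comparisons above, Gfap was 2.66-fold higher (log2 1.41, SE 0.180, adjusted p = 0.00131), and 0.188% of genes passed. It was the one member past the threshold. Among males alone, the fold was 1.90 (adjusted p = 0.0409), and when 5xFAD replicate 3 was also left out, leaving 1 5xFAD male, the adjusted p was 0.0977 at log2 0.93.

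**Figure D2:**
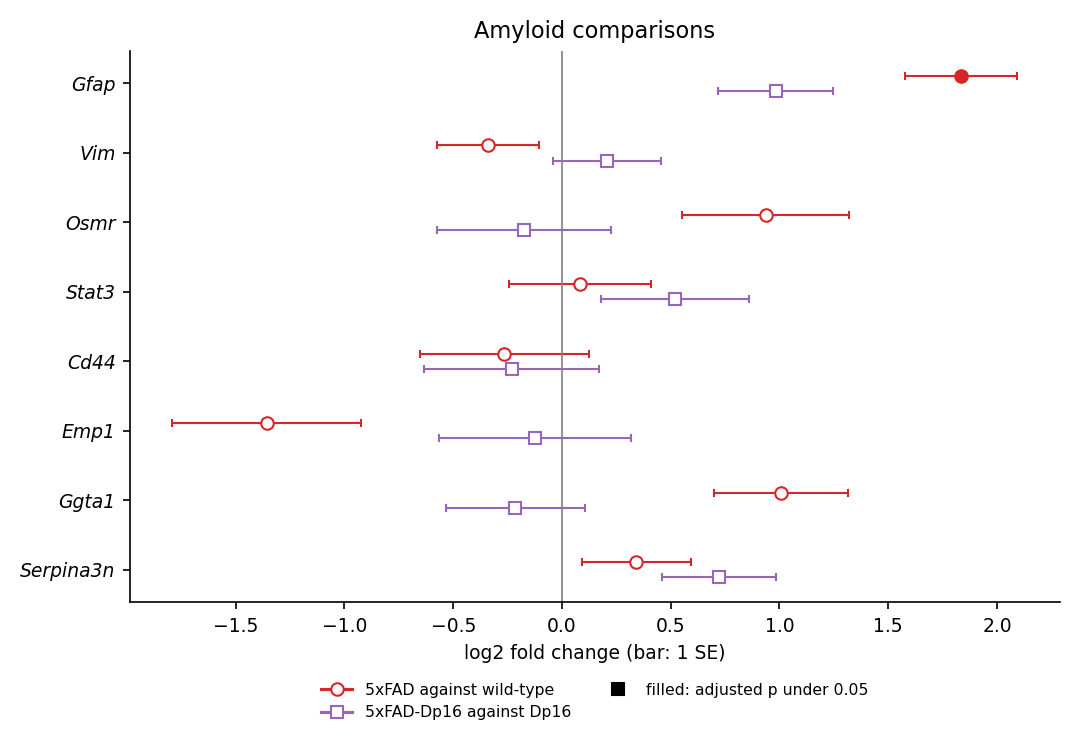
Log2 fold change (x axis, bars 1 SE) of the 8 members tested, for 5xFAD against wild-type (red circles) and 5xFAD-Dp16 against Dp16 (purple squares); filled symbols have an adjusted p under 0.05. Gfap is farthest to the right in both comparisons, at 1.84 and 0.98, and is the one filled symbol.

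Within 5xFAD, the 2 females had more Gfap than the 2 males. The mean was 825 CPM in the 2 females and 348 CPM in the 2 males, while wild-type females and males had 158 and 165 CPM and Dp16 females and males 170.2 and 224 CPM. The female-minus-male difference of 5xFAD, less the one found in the non-carriers, was 1.37 in log2 (SE 0.277, unadjusted p = 0.000171, adjusted p = 0.408). In this contrast 0 of 8 members and 0% of genes passed with edgeR, and DESeq2 was not run for it. An unadjusted p under 0.05 was found for 3 members (Gfap, Cd44 and Stat3), and for 12.2% of all genes. Without the filter on low counts, Gfap passed in this contrast (adjusted p = 4.68e-05), as did 1.37% of all genes. Between females, 5xFAD against wild-type, the log2 fold change was 2.38 (SE 0.236, adjusted p = 0.000180). The 5xFAD-Dp16 group has no females, so this sex difference could not be measured there. The 5xFAD libraries also differed otherwise between the sexes. Mitochondrial reads were 10.99 and 10.60% in the females and 8.11 and 8.78% in the males. The rank correlation of expression with gene length was 0.227 and 0.0791 in the females and -0.462 and -0.239 in the males. With 2 animals of each sex, sex and such library differences cannot be told apart.

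The 5xFAD females were also highest in microglial transcripts. The summed level of 10 microglia markers (Cx3cr1, P2ry12, Tmem119 and others) was 971 to 1003 CPM in 5xFAD females and 630 to 670.1 CPM in 5xFAD males. It was 542 to 607 CPM in wild-type, 522 to 639 CPM in Dp16 and 562 to 679 CPM in 5xFAD-Dp16. The astrocyte marker sums of 5xFAD (7368 to 10220.4 CPM) overlapped those of wild-type (7952 to 9114 CPM). Between them 0 of 15 markers passed with edgeR or DESeq2, 2 at an unadjusted edgeR p under 0.05, beside 10.7% of all genes. In 5xFAD-Dp16 against 5xFAD, edgeR called 0 of 15, with 3 at an unadjusted p under 0.05, beside 23.8% of all genes. DESeq2 called 1 of the 15 there, and 1.46% of all 55385 genes, a set that includes genes too low for the edgeR filter. The part of cell numbers in the Gfap values was not tested.

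**Figure D3:**
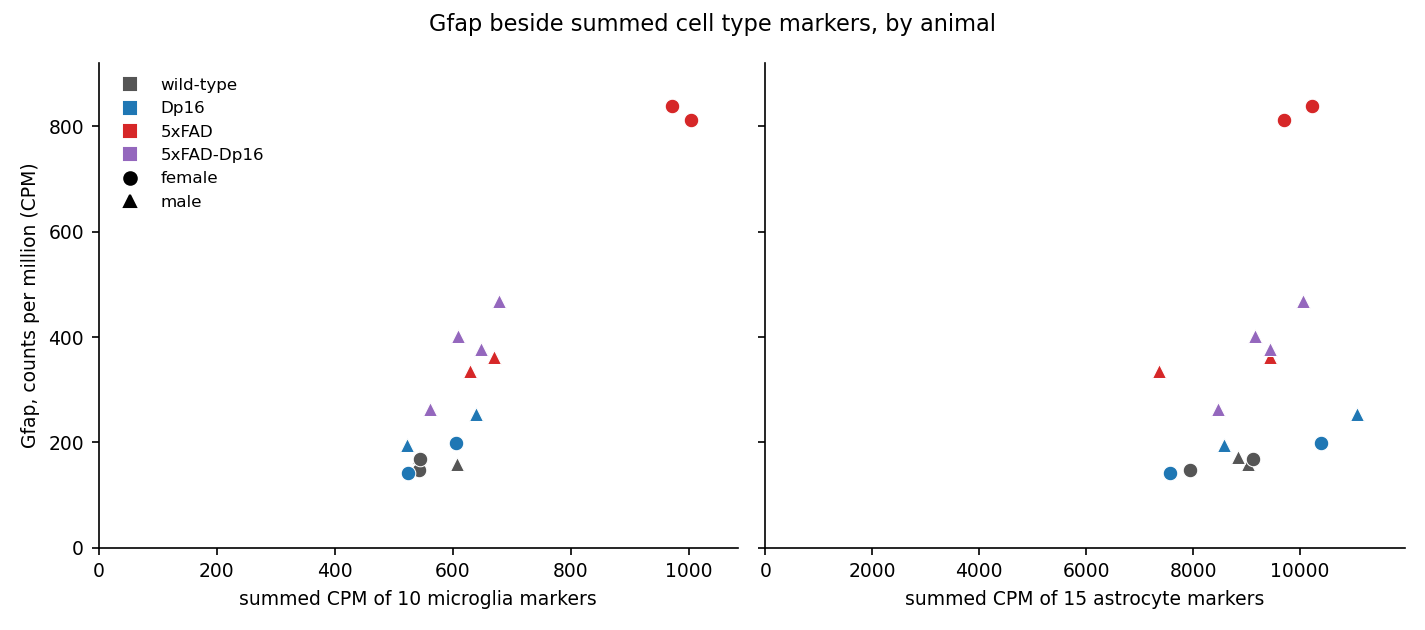
Gfap (y axis, CPM) beside the summed CPM of 10 microglia markers (left) and 15 astrocyte markers (right) in the 16 animals; colours are genotypes, circles females and triangles males. The 2 5xFAD females lie apart at the upper right on the left, at 971 and 1003 CPM of microglia markers, while on the right the genotypes overlap along the x axis.

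Genes were also ranked by how like their profile over the libraries was to that of Gfap. Likeness was the root-mean-square difference of centred log2 CPM over the 16 libraries, compared among 14620 genes, whose median difference was 0.858. The closest were Mpeg1 at 0.221, a macrophage pore-forming protein, Cd68 at 0.346, Plek at 0.380, Ptprc at 0.382 and Trem2 at 0.403, a microglial lipid receptor. They were followed by Thy1 at 0.431, whose promoter drives the transgenes, the urea transporter Slc14a1 at 0.439 and the protease Ctss at 0.444. Among the members the closest to Gfap was Ggta1, ranked 58, and the farthest was Emp1, ranked 14443. The libraries share the sex split and their depth, and the differences are a description.

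Vim, on chromosome 2 (13573927 to 13582826), encodes the filament partner of GFAP and is also made by endothelial and fibroblast cells. It was at 17.6, 21.5, 16.2 and 27.9 CPM in wild-type and 18.1, 17.2, 22.6 and 19.1 CPM in Dp16. In 5xFAD it was at 18.5, 20, 10 and 15.9 CPM, and in 5xFAD-Dp16 at 25.2, 27.8, 18.7 and 11.5 CPM. All 4 ranges overlapped. The log2 fold change was -0.34 (SE 0.235, adjusted p = 0.617) in 5xFAD against wild-type and 0.21 (SE 0.248, adjusted p = 0.819) in 5xFAD-Dp16 against Dp16. The other genes of the filament list, Nes, Synm, Plec and Des, gave 0 calls of 4 in both comparisons with edgeR and DESeq2, with 0 at an unadjusted p under 0.05. Nes, which encodes nestin, had the smallest p of them in 5xFAD-Dp16 against Dp16, at a log2 fold change of 0.87 (SE 0.626, adjusted p = 0.758), and Plec in 5xFAD against wild-type at -0.62 (SE 0.487, adjusted p = 0.662).

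Osmr, on chromosome 15 (6813577 to 6874969), encodes the oncostatin M receptor chain that pairs with gp130. It rested on few reads, from 6 to 59 per library. Its levels were 0.996, 0.481, 1.65 and 1.72 CPM in wild-type and 3.88, 2.17, 2.79 and 2.35 CPM in Dp16. In 5xFAD they were 3.13, 2.51, 1.72 and 1.98 CPM and in 5xFAD-Dp16 2.94, 2.39, 2.68 and 1.42 CPM. The Dp16 range lay above the wild-type range, and the 5xFAD range overlapped the wild-type range by its lowest animal.

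Osmr was 1.91-fold higher in 5xFAD than in wild-type (log2 0.94, SE 0.383, unadjusted p = 0.0259, adjusted p = 0.405). In 5xFAD-Dp16 against Dp16 the log2 fold change was -0.17 (SE 0.399, adjusted p = 0.911). Wild-type was the low group: the 3 others had means of 2.80, 2.33 and 2.36 CPM against 1.21 CPM.

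Stat3, on chromosome 11 (100885098 to 100939540), encodes the transcription factor downstream of gp130. It was at 11.2, 7.85, 17.5 and 21.6 CPM in wild-type and at 16.8, 17.9, 21.3 and 8.49 CPM in Dp16. The 5xFAD values were 16.9, 22.8, 8.18 and 12.9 CPM and the 5xFAD-Dp16 values 29.5, 18.0, 23.7 and 22.4 CPM. The 5xFAD females were above the 5xFAD males, and all ranges overlapped. The log2 fold change was 0.08 (SE 0.327, adjusted p = 0.938) in 5xFAD against wild-type and 0.52 (SE 0.340, adjusted p = 0.758) in 5xFAD-Dp16 against Dp16.

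Around Osmr and Stat3, 17 of 22 genes of the gp130 and JAK-STAT list were measured above the filter. In either amyloid comparison 0 of 17 passed with edgeR or DESeq2. In each, 1 had an unadjusted edgeR p under 0.05, beside 10.7 and 5.29% of all genes. The median log2 fold change of the 17 was -0.20 in 5xFAD against wild-type, beside 0.02 over all genes, and 0.04 in 5xFAD-Dp16 against Dp16, beside 0.01. Those with the smallest p were Cntfr, a receptor for ciliary neurotrophic factor, at -0.58 (SE 0.264, adjusted p = 0.443) in 5xFAD against wild-type, and the kinase gene Tyk2 at 0.71 (SE 0.332, adjusted p = 0.758) in 5xFAD-Dp16 against Dp16.

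Cd44, on chromosome 2 (102811141 to 102901665), encodes a surface receptor for hyaluronan. It was at 2.93, 3.12, 3.97 and 1.46 CPM in wild-type, 3.74, 3.66, 3.40 and 2.99 CPM in Dp16, 4.27, 2.34, 1.01 and 2.03 CPM in 5xFAD, and 4.04, 3.07, 2.20 and 2.38 CPM in 5xFAD-Dp16. The widest range was that of 5xFAD, from 1.01 in replicate 3 to 4.27 in replicate 1, and the groups overlapped. The log2 fold changes were -0.26 (SE 0.388, adjusted p = 0.823) in 5xFAD against wild-type and -0.23 (SE 0.402, adjusted p = 0.880) in 5xFAD-Dp16 against Dp16.

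Emp1, on chromosome 6 (135362545 to 135383173), encodes a small membrane protein of the epithelial membrane protein family. Its level was 1.23, 2.56, 1.59 and 3.02 CPM in wild-type and 1.55, 1.83, 1.72 and 2.21 CPM in Dp16. In 5xFAD it was 1.13, 0.741, 0.474 and 0.769 CPM, from 8 to 17 reads per library, and in 5xFAD-Dp16 1.30, 2.79, 0.859 and 0.908 CPM. The 5xFAD range lay below the wild-type range, by the small gap between 1.13 and 1.23 CPM. Emp1 and Gfap, opposite in direction, were thus the 2 of 8 tested members whose ranges did not overlap in this comparison, as was true of 5.28% of all tested genes. In 5xFAD-Dp16 against Dp16 this held for Gfap alone, and for 5.68% of genes.

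The log2 fold change of Emp1 was -1.36 (SE 0.433, unadjusted p = 0.00613, adjusted p = 0.283) in 5xFAD against wild-type and -0.12 (SE 0.442, adjusted p = 0.945) in 5xFAD-Dp16 against Dp16. The sum of 9 endothelial markers was 294 to 351 CPM in wild-type and 238 to 284 CPM in 5xFAD, with no overlap. It was 262 to 325 CPM in Dp16 and 226 to 283 CPM in 5xFAD-Dp16. The Emp1 means of these 2 groups were 1.83 and 1.46 CPM, against 0.779 CPM in 5xFAD. Between wild-type and 5xFAD, the mural sums (325 to 374 against 246 to 347 CPM) and the fibroblast and meninges sums (40.03 to 52.2 against 31.5 to 51.3 CPM) overlapped. The median log2 fold change there was -0.67 for 9 endothelial, -0.61 for 9 mural and -0.64 for 10 fibroblast and meninges markers, beside 0.02 over all genes. Other lists also had medians away from 0, such as hippocampus at -0.53, excitatory neurons at -0.35 and microglia at 0.49. By edgeR 0 genes of the vascular and meningeal lists passed, with 4, 2 and 0 at an unadjusted p under 0.05, beside 10.7% of all genes. DESeq2 called 1, Cldn5, a tight junction gene. In 5xFAD-Dp16 replicate 2, the animal with the most Emp1 and Vim of its group, the fibroblast and meninges markers summed to 94.1 CPM, against 37.1 to 54.1 CPM in the other animals of that genotype. Their part in the Emp1 values was not tested.

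Ggta1, on chromosome 2 (35400179 to 35463231), encodes an enzyme that adds galactose to cell-surface sugar chains. It was at 4.04, 2.00, 3.06 and 4.53 CPM in wild-type and 5.50, 5.95, 7.45 and 4.32 CPM in Dp16. The 5xFAD mice had 9.73, 7.30, 5.75 and 4.28 CPM and the 5xFAD-Dp16 mice 6.93, 4.55, 5.58 and 3.41 CPM. Wild-type was the lowest group, its range overlapping each of the others. The fold was 2.01 in 5xFAD against wild-type (log2 1.01, SE 0.309, unadjusted p = 0.00463, adjusted p = 0.261), and the log2 fold change -0.21 (SE 0.318, adjusted p = 0.855) in 5xFAD-Dp16 against Dp16.

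Serpina3n, on chromosome 12 (104406729 to 104414329), encodes a secreted inhibitor of serine proteases related to human alpha-1-antichymotrypsin. It lies in a cluster of near-identical copies, so reads shared between copies may have been divided among them or left out of the counts. The 10 neighbouring copies counted (Serpina3a to Serpina3m) summed to at most 1.69 CPM in any library, and 3 of them had no read in any library. These sums do not show how many shared reads were left out. Serpina3n was at 5.16, 6.09, 5.63 and 10.1 CPM in wild-type, 10.9, 6.92, 9.58 and 7.46 CPM in Dp16, 11.9, 12.8, 4.98 and 5.33 CPM in 5xFAD, and 15.2, 8.08, 12.1 and 12.9 CPM in 5xFAD-Dp16.

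In 5xFAD the 2 females, at 11.9 and 12.8 CPM, stood above the 2 males, at 4.98 and 5.33 CPM, a log2 difference of 1.16 (unadjusted p = 0.00289, adjusted p = 0.249). In the non-carriers that difference was 0.38 (unadjusted p = 0.122), and 5xFAD exceeded it by 0.78 (SE 0.398, unadjusted p = 0.0671, adjusted p = 0.409). The library differences between the 5xFAD females and males, given above for Gfap, apply here too. Against wild-type, the log2 fold change of Serpina3n was 0.34 (SE 0.250, adjusted p = 0.640). Against Dp16, 5xFAD-Dp16 mice had 1.65-fold more (log2 0.72, SE 0.262, unadjusted p = 0.0138, adjusted p = 0.758). Over the 8 carriers and 8 non-carriers the log2 fold change was 0.53 (SE 0.179, unadjusted p = 0.00873, adjusted p = 0.418).

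Among the genes closest to Serpina3n over the 16 libraries were Pkd1 (0.204), Vwa5b2 (0.214), Sh3kbp1 (0.222), Camk1d (0.235), Rims1 (0.237), Cers6 and Tub (0.249 each), where the median of all genes was 0.573. Among the members, Stat3 ranked 885 and Gfap 10578 in likeness to Serpina3n. The libraries differed in a trend of expression with gene length, whose rank correlation over genes was lowest at -0.462, in 5xFAD replicate 3, and highest at 0.451, in 5xFAD-Dp16 replicate 1. Its part in the likeness was not tested.

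Timp1, on the X chromosome (20870166 to 20874735), encodes a tissue inhibitor of metalloproteinases. It had 107 reads in all, in 15 libraries. The wild-type libraries held 6, 13, 20 and 1 reads and the Dp16 libraries 0, 2, 1 and 11, with 10, 6, 7 and 5 in 5xFAD and 4, 6, 7 and 8 in 5xFAD-Dp16. Wild-type had both the highest mean and the widest spread, 0.667 CPM ± 0.555 (SD, n = 4), against 0.425 ± 0.171 in 5xFAD.

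Lcn2, on chromosome 2 (32384633 to 32388252), encodes lipocalin 2, a secreted iron-siderophore carrier that neutrophils also make. It had 50 reads in 6 libraries. The 4 5xFAD libraries held 0 reads, which allows up to 0.165 to 0.200 CPM per library at 3 counts, for counting error only. Wild-type replicate 4 held 7 reads, Dp16 replicates 2 and 3 held 5 and 17, and 5xFAD-Dp16 replicates 1, 2 and 3 held 12, 7 and 2. Dp16 replicate 3, with the most, was also highest in the sum of 8 neutrophil markers, at 28.3 CPM against 0.401 to 7.16 CPM in the other libraries. The other libraries with Lcn2 reads had neutrophil sums of 0.797 to 2.57 CPM, within that range. Among them 5xFAD-Dp16 replicate 1, with 12 Lcn2 reads, had 0.947 CPM. Dp16 replicate 3 also held 128 CPM of choroid plexus and ependyma markers and 72.6 CPM of fibroblast and meninges markers. The part of neutrophil RNA was not tested.

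The wider reactive genes were read from lists chosen by name. Of the 87 genes on the reactive, pathway and partner lists outside the 10 members, 65 were tested, and 0 passed with edgeR in either amyloid comparison. In 5xFAD against wild-type 10 of 65 (15.4%) had an unadjusted p under 0.05, beside 10.7% of all genes. DESeq2 called 1, Cd9, and 0.354% of all 55385 genes, unfiltered. In 5xFAD-Dp16 against Dp16 it was 5 of 65 (7.7%), beside 5.29% of all genes, and DESeq2 called 0. The median log2 fold changes of the 65 were -0.14 and -0.01. In the carrier contrast edgeR called 0 and DESeq2 1, Hspb1, where DESeq2 called 0.231% of all 55385 genes. An unadjusted edgeR p under 0.05 was found for 11 of 65 (16.9%), beside 7.53% of all genes. In 5xFAD-Dp16 against 5xFAD edgeR called 0, with 15 of 65 (23.1%) at an unadjusted p under 0.05, beside 23.8% of all genes. DESeq2 called 7 there: Cd63, Cd9, Cntfr, S100a6, Slc22a17, Srgn and Timp2. It called 806 genes in that comparison, 1.46% of all 55385. The 65 list genes had passed the edgeR filter, and the 55385 include genes that were too low for it. The DESeq2 shares of all genes are thus not on a like set with the 65.

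The list shared by reactive states had 6 genes. Their median log2 fold change was -0.62 in 5xFAD against wild-type, with 2 of 6 positive, beside 0.02 over all genes. In 5xFAD-Dp16 against Dp16 it was 0.31, with 4 of 6 positive, beside 0.01. Among them Cxcl10, a chemokine, was at 0.938 CPM ± 0.868 in 5xFAD and 0.0404 ± 0.0808 in wild-type (unadjusted p = 0.00544, adjusted p = 0.269, edgeR). Wild-type was its low group, at 0 to 0.162 CPM. The Cxcl10 mean was 0.694 ± 0.968 in Dp16, without the transgenes, and 0.864 ± 0.803 in 5xFAD-Dp16. Hspb1, a small heat shock protein gene, stood at 5.78 CPM ± 2.00 in Dp16 and 2.54 ± 1.30 in 5xFAD-Dp16, a log2 fold change of -1.23 (SE 0.433, adjusted p = 0.758). Its 5xFAD mean was 2.85 CPM ± 1.61, against 5.84 ± 1.56 in wild-type.

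Of 10 tested genes from the list induced by inflammation, Fbln5, an elastic fibre protein gene, was at log2 -0.93 in 5xFAD against wild-type (SE 0.313, adjusted p = 0.303). Srgn, a proteoglycan gene, was at -0.46 in 5xFAD-Dp16 against Dp16 (SE 0.209, adjusted p = 0.758) and at 0.42 in 5xFAD against wild-type (SE 0.195, adjusted p = 0.456). From the list induced by ischaemia, 6 genes were tested. Tm4sf1 was at -0.52 in 5xFAD-Dp16 against Dp16 (SE 0.190, adjusted p = 0.758), and Cd14, a lipopolysaccharide co-receptor of myeloid cells, at 0.61 in 5xFAD against wild-type (SE 0.320, adjusted p = 0.510).

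The list of astrocyte genes described around amyloid had 10 of 10 tested. Cd9, a tetraspanin gene that other glia also express, was at 253 CPM ± 32.1 in 5xFAD and 162 ± 35.8 in wild-type, 1.61-fold higher (log2 0.68, SE 0.174, unadjusted p = 0.00111, adjusted p = 0.182). In Dp16 and 5xFAD-Dp16 it was at 134 ± 9.14 and 140.3 ± 22.4 CPM. Fbxo2, a ubiquitin ligase subunit gene, was at log2 -0.39 in 5xFAD against wild-type (SE 0.127, adjusted p = 0.287). Of the receptors, ligands and protease partners of Cd44, Timp1 and Lcn2, 12 of 14 were tested. Slc22a17, the lipocalin 2 receptor gene, was at -0.44 (SE 0.171, adjusted p = 0.384) and Hmmr, which encodes another hyaluronan receptor, at 1.47 (SE 0.611, adjusted p = 0.407), both in 5xFAD against wild-type. In 5xFAD-Dp16 against Dp16 Hmmr was at -0.97 (SE 0.616, adjusted p = 0.758), and its mean was 1.05 CPM in Dp16 and 1.02 CPM in 5xFAD.

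The Dp16 and wild-type mice were compared to ask how the duplication alone relates to these genes. By edgeR 0 of 8 members passed, where 0.0176% of genes did. DESeq2 called 0 members as well, and 2 members, Osmr and Ggta1, had an unadjusted edgeR p under 0.05, beside 3.88% of all genes. Osmr was 2.25-fold higher (log2 1.17, SE 0.381, unadjusted p = 0.00694, adjusted p = 0.883), and it was the 1 of 8 members whose ranges did not overlap, as in 2.29% of all genes. Ggta1 was 1.70-fold higher (log2 0.76, SE 0.307, unadjusted p = 0.0239, adjusted p = 1). Serpina3n stood at log2 0.41 (SE 0.250) and Gfap at 0.30 (SE 0.249), both at an adjusted p of 1. This comparison shares its wild-type animals with that of 5xFAD, in which Osmr and Ggta1 also stood above wild-type.

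The 5xFAD-Dp16 mice were compared with 5xFAD mice for the same duplication in the presence of amyloid, with 4 males against 2 males and 2 females and an additive sex term in the model. By edgeR 0 of 8 members and 0% of all genes passed, although 23.8% of all genes had an unadjusted p under 0.05, and so did 2 members, Serpina3n and Emp1. DESeq2 called 0 members. Serpina3n was 1.73-fold higher (log2 0.79, SE 0.276, unadjusted p = 0.0106, adjusted p = 0.156) and Emp1 2.16-fold higher (log2 1.11, SE 0.470, unadjusted p = 0.0304, adjusted p = 0.178). The Emp1 value was 0.61 in log2 without 5xFAD-Dp16 replicate 2 and Dp16 replicate 3. Gfap was at log2 -0.55 (SE 0.281, adjusted p = 0.237). In 0 of 8 members were the ranges apart, where 11.9% of all genes had ranges that did not overlap.

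Among males, 4 against 2, Gfap was at log2 -0.01 (SE 0.183, adjusted p = 0.981): the 5xFAD males had 335 and 361 CPM and the 5xFAD-Dp16 males 264 to 468 CPM. In that comparison Serpina3n (log2 1.1, SE 0.281, adjusted p = 0.0164) and Stat3 (log2 1.03, SE 0.252, adjusted p = 0.0142) passed, 2 of 9 members tested, where 22.5% of all genes did. The Serpina3n values were 4.98 and 5.33 CPM against 8.08 to 15.2 CPM, and those of Stat3 8.18 and 12.9 CPM against 18.0 to 29.5 CPM. With the trend of expression on gene length removed, Stat3 was at 0.64 (adjusted p = 0.0368) and Serpina3n at 1.27 (adjusted p = 0.0131), where 17.9% of all genes passed. 5xFAD replicate 3 had the lowest level of 7 of the 10 members in its group. Without it the 5xFAD arm was 1 male, whose spread was taken from the other groups. In that fit 0 members and 0 of 18838 genes passed, with Serpina3n at 1.11 (adjusted p = 0.227) and Stat3 at 0.79 (adjusted p = 0.264), and both had an unadjusted p under 0.05. DESeq2 was not run for males alone.

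**Figure D4:**
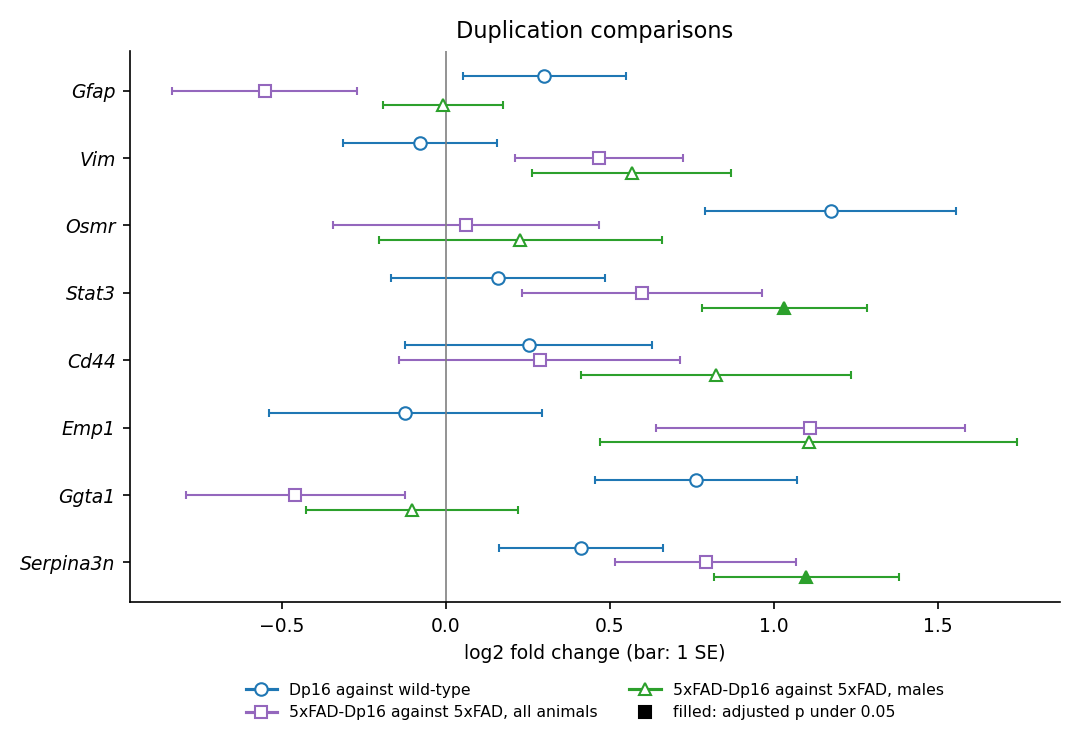
Log2 fold change (x axis, bars 1 SE) of the 8 members for Dp16 against wild-type (blue circles), 5xFAD-Dp16 against 5xFAD in all animals (purple squares) and in males (green triangles); filled symbols have an adjusted p under 0.05. Osmr is highest in Dp16 against wild-type at 1.17, Gfap is at -0.55 in all animals and at -0.01 in males, and Serpina3n and Stat3 are filled among males.

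The interaction, the effect of the transgenes on the duplicated background minus that on the normal one, was tested for the members directly. By edgeR 0 of 8 members and 0% of genes passed, DESeq2 called 0 members, and 2 members had an unadjusted p under 0.05, beside 9.35% of all genes. These were Ggta1 at log2 -1.22 (SE 0.449, unadjusted p = 0.0146) and Gfap at -0.85 (SE 0.372, unadjusted p = 0.0352), both with an adjusted p of 0.522. Osmr was at -1.11 (SE 0.560) and Emp1 at 1.24 (SE 0.612), with the same adjusted p. For Gfap the value among males was -0.44 (SE 0.279, adjusted p = 0.525). Without a filter on low counts its adjusted p over all animals was 0.0189, where 1.19% of all genes passed. The 5xFAD-Dp16 group being all male, sex and the combined genotype cannot be fully told apart in this contrast.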

How the data were processed

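The authors deposited raw read counts per gene as whole numbers for 55385 genes and 16 libraries, and RPKM values, deposited by the authors, that scale those counts by gene length and library total (100.0% of non-zero values met that relation within 0.1%). TRIzol-extracted, polyadenylated RNA went into strand-specific libraries read from both ends, per the labels' protocols. The tools named are HISAT2 2.1.0, HTSeq 0.6.1, SAMtools 1.5 and FastQC 0.11.5, with genome build GRCm38, per the submitters' processing notes. The strand setting of the counting is not given in the sources used here, so reads of overlapping antisense genes may be included.

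Genes were kept by filterByExpr of edgeR 4.0.16 (R 4.3.3), which left 17019, and scaled by TMM. All 16 libraries entered 1 quasi-likelihood model, with a mean per genotype plus a sex term. Tests were two-sided, p-values were adjusted by Benjamini-Hochberg across the genes tested, and the threshold was 0.05. The sex contrasts came from a second model with a mean per genotype and sex. The common biological coefficient of variation was 0.266. CPM values are counts per 1000000 counted reads without TMM. Likeness used log2 CPM with a prior count of 2, and RPKM served for levels between genes. DESeq2 1.42.0, other scalings, filters, sex terms, subsets of animals, a gene length correction and leaving out libraries were tried as alternatives.

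Coordinates came from Gencode M21, joined by gene identifier, and start windows from RefSeq (GRCm38.p6). The members and lists were chosen with earlier results of these data known. Named besides the 10 members were, per reactive, pathway or partner list, up to 3 genes past the threshold in the amyloid comparisons or, with none, at most the 2 of smallest p. The 8 genes most like Gfap and Serpina3n among those whose mean log2 CPM reached 0 were also named. The markers given as examples were chosen after values were seen. Some items that these rules named are not reported here.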

Additional observations from a re-analysis of the deposited data

Results flagged for a closer look

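In each of 96 groups of 4 libraries (40 of single members, 56 of summed cell type markers), the highest and lowest library were set against the gap that Dixon's 95% value allows. Chance alone gives about 1 in 20 such groups, and 6 were found. Among the members there was 1: Lcn2 in wild-type replicate 4 was at 0.377 CPM, where the 3 other wild-type libraries had 0. The choroid plexus and ependyma sum was 128 CPM in Dp16 replicate 3 (next highest 50) and 734 CPM in 5xFAD-Dp16 replicate 2 (next highest 41.6). Wild-type replicate 1 was high in the microglia sum, 607 CPM against 544 for the next, and in the oligodendrocyte sum, 9040 CPM against 8010. 5xFAD-Dp16 replicate 4 was low in the mural sum, at 292 CPM against 345 for the next.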

How the results depend on the processing

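Of 169 recomputed counts of members past the threshold, 159 stayed within 1.5 times the main count. Gfap in 5xFAD against wild-type fell out, leaving 0 members, among males (log2 1.14) and among males without 5xFAD replicate 3 (log2 1.15, with 1 animal in the 5xFAD arm and the spread taken from the other groups). In the carrier contrast the count was 0 in the latter fit only. Without a filter on low counts, Gfap made the count 1 in 5xFAD-Dp16 against Dp16, in 5xFAD-Dp16 against 5xFAD (adjusted p = 0.0223), in the interaction and in the sex contrast. In these unfiltered fits 0.154, 7.6, 1.19 and 1.37% of all genes passed, in that order. For 5xFAD-Dp16 against 5xFAD the count was 2 (Serpina3n and Stat3) among males, among males with the length trend removed and when only these groups were fitted, where 22.5, 17.9 and 31.3% of all genes passed. The fold changes of these fits rest on the same 2 5xFAD males, replicate 3 among them. With no 5xFAD-Dp16 females, the sex term of the last fit leaves a comparison of males with males. No count moved beyond that bound when any single library was left out, nor with RLE scaling, DESeq2, no sex term or the gene length correction over all animals. The fits among males without 5xFAD replicate 3 or with the length trend removed, and those without the libraries that stood apart, were chosen after seeing the data.

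Fold changes were recomputed 1027 times for all 8 tested members in the 2 amyloid comparisons, for Gfap, Serpina3n, Osmr, Ggta1 and Emp1 in the other contrasts of genotype, and for Stat3 in 5xFAD-Dp16 against 5xFAD. They changed sign in 27, 0 of them past the threshold, and other members and contrasts are not in this count. In 5xFAD against wild-type these were Stat3 (-0.38 among males, -0.24 there with the length trend removed, -0.13 there without 5xFAD replicate 3, and -0.17 to 0.37 on leaving out single libraries), Cd44 (0.14 without wild-type replicate 2 and 5xFAD replicate 3, and -0.64 to 0.0276 on leaving out single libraries) and Serpina3n (-0.0457 among males with the length trend removed). In 5xFAD-Dp16 against 5xFAD, Osmr was -0.0614 without a sex term, -0.19 with the length trend removed, -0.12 with that among males and -0.0522 to 0.24 on leaving out single libraries, and Ggta1 was 0.19 among males without 5xFAD replicate 3. Ggta1 was also -0.0734 there in the carrier contrast, and 0.0392 in 5xFAD-Dp16 against Dp16 without the 2 choroid-rich libraries. Emp1 was -0.64 to 0.0603 in 5xFAD-Dp16 against Dp16 and -0.27 to 0.0422 in Dp16 against wild-type on leaving out single libraries, and in the latter 0.32, 0.31 and 0.34 in the 3 fits among males. The cause was not tested.

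Replicate numbers did not pair the animals: over 24 same-numbered pairs the correlation of deviations from the genotype means ran from -0.365 to 0.316, with 5 above 0.1. With the replicate block, 1 member passed in 5xFAD against wild-type, Gfap at log2 1.79 (adjusted p = 0.00419), and 1 in the carrier contrast, with 0 in the other comparisons, as without it. Members under about 60 reads per library (Osmr, Emp1, Timp1, Lcn2) are limited by depth.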
